A study of Homo sapiens with 8 samples.

Results

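Cells make cholesterol and fatty acids from the same starting unit, acetyl-CoA, and the genes of both routes were followed here across 4 human embryonic stem cell lines. The set was a list of 33 gene symbols: enzymes of the mevalonate pathway and of sterol synthesis, the regulators of the sterol regulatory element-binding proteins (SREBPs), and enzymes of fatty acid synthesis, elongation and desaturation. A member was every array probe that the platform annotation assigns to a listed symbol and that was detected (detection p under 0.05 against negative control probes) on at least 2 of the 8 arrays. This gave 45 probes of 32 genes, out of 23280 probes kept and 48802 on the array. The annotation used here gave no probe for FDFT1, squalene synthase. Of 49 annotated probes, 41 were detected on all 8 arrays and 4 were left out, 1 each of ACACA, ACSS2, MSMO1 and SREBF1, none of them detected on any array. The lowest detection p among those 4 was 0.0567. Just inside the threshold, the only SREBF2 probe was detected on 3 arrays, with raw intensities of 55.3 to 75.2.

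The study asked how extra ZFX, a zinc finger transcription factor encoded on the X chromosome, changes human embryonic stem cells. All 4 lines derive from H9 (WA-09), an established human embryonic stem cell line, and were kept in the usual culture for such cells. ZFX clone 5 and ZFX clone 2 received a bacterial artificial chromosome holding the ZFX locus and were picked by drug resistance. Clone 3 is a wild-type control clone grown from the same cells, and H9 is the parental line. Each ZFX line is a single clone, and drug selection of clone 3 is not stated in the labels. Every line was measured on 2 Illumina bead arrays with biotin-labelled RNA. The sources do not state whether paired arrays held separate cultures, so p-values between lines measure only the spread between arrays, which may be technical.

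Cholesterol is built from acetyl-CoA through mevalonate, isoprenoid units, squalene and lanosterol, and fatty acids are built from acetyl-CoA by carboxylation and repeated condensation. SREBP precursors sit in the endoplasmic reticulum bound to SCAP. When sterols are scarce, SCAP carries them to the Golgi, where proteases free the active factor, and INSIG proteins hold the complex back when sterols are plentiful. SREBF2 encodes the form that mainly serves cholesterol genes, and SREBF1 the form that mainly serves fatty acid genes.

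Between 19177 and 20588 probes were detected per array, and arrays of a line correlated at 0.993 to 0.994. The ZFX probe read 7.07 and 7.52 (log2 intensity) in ZFX clone 5, 7.55 and 7.64 in ZFX clone 2, 6.26 and 6.12 in clone 3, and 6.06 and 5.99 in H9. Clone 3 stood apart from the other lines, with correlations of 0.980 to 0.984, against 0.985 to 0.992 among the others. Of 10 embryonic stem cell markers, 9 had a probe and all 9 were detected on every array. The summed normalized intensity of 6 primitive streak markers was 130 to 138 in ZFX clone 5, 133 to 137 in ZFX clone 2, 2151 to 2228 in clone 3 and 190 to 210 in H9. TBXT and GSC were detected in clone 3 and in no other line. The comparison of ZFX with control lines is therefore given with and without clone 3.

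In the plot of all member probes by array, a pair of ACSS2 probes and LPIN1 stood out in the ZFX lines, and many probes across all roles were low in clone 3. Clone 3 had the lowest of the 4 line means for 32 of the 45 probes, against 30.6% of all kept probes, and the highest for 1, against 28.5%.

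**Figure D1:**
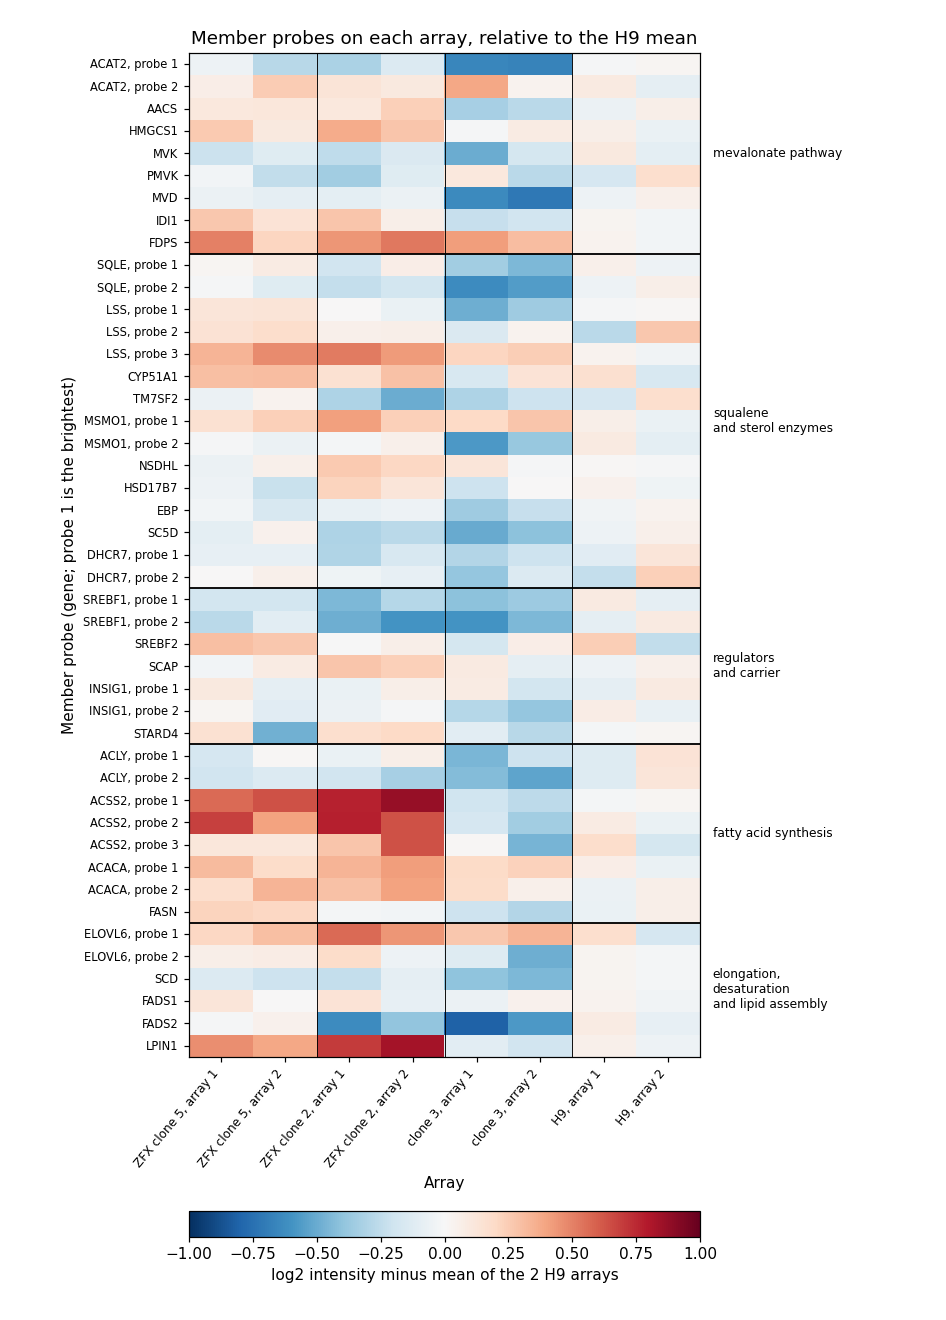
Each of the 45 member probes (rows, grouped by role) on each of the 8 arrays (columns), as log2 intensity minus the mean of the 2 H9 arrays of that probe. The red cells of ACSS2 and LPIN1 lie in the columns of ZFX clone 5 and ZFX clone 2, and clone 3 has the lowest line mean for 32 of the 45 probes.

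The comparison of the ZFX lines with the control lines asked which of these genes move with extra ZFX. ACSS2 and LPIN1 rose, and no other member gene passed the test. ACSS2 encodes the acetyl-CoA synthetase of cytosol and nucleus, which makes acetyl-CoA from acetate. LPIN1 encodes lipin 1, the phosphatidate phosphatase that makes diacylglycerol for triglyceride and phospholipid synthesis. On the array, ACSS2 had log2 intensities of 11.23 and 11.30 in ZFX clone 5, 11.43 and 11.53 in ZFX clone 2, 10.46 and 10.40 in clone 3, and 10.64 and 10.68 in H9. Every array of a ZFX line was above every array of a control line, and clone 3 was the lowest line. In limma the ZFX lines were 1.78-fold above the control lines, a log2 fold of 0.83 (SE 0.101, adjusted p = 0.000184). A second ACSS2 probe showed the same order of groups, with 10.92 and 10.64 in ZFX clone 5, 11.02 and 10.88 in ZFX clone 2, 10.07 and 9.89 in clone 3, and 10.32 and 10.17 in H9, and a log2 fold of 0.75 (SE 0.12, adjusted p = 0.00231). The remaining ACSS2 probe, detected on 7 arrays, did not pass, with a log2 fold of 0.40 (adjusted p = 0.552). The summed normalized intensity of 4 neural markers, mostly signal of TUBB3, was also higher in the ZFX lines. It was 3483 to 3499 in ZFX clone 5, 3650 to 3829 in ZFX clone 2, 2549 to 2634 in clone 3 and 2388 to 2446 in H9. TUBB3, a tubulin of neurons, had mean log2 intensities of 11.55, 11.68, 11.05 and 10.96 in the same order of lines. NES, detected on 8 arrays, did not separate the groups, with 8.775, 8.675, 8.711 and 8.529. PAX6 was detected on 3 arrays and SOX1 on 0. The part of these markers in the ACSS2 and LPIN1 differences was not tested.

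LPIN1 had log2 intensities of 8.84 and 8.76 in ZFX clone 5, 9.07 and 9.20 in ZFX clone 2, 8.27 and 8.18 in clone 3, and 8.43 and 8.32 in H9. Its groups did not overlap either, and ZFX clone 2 was above ZFX clone 5. The log2 fold was 0.67 (SE 0.123, limma adjusted p = 0.00664), or 1.59-fold. Among 239 probes that rose in this comparison, the 2 ACSS2 probes ranked 108 and 138 by fold and LPIN1 175. They are 3 of 45 member probes, where 1.03% of all kept probes rose. At an unadjusted limma p under 0.05, 9 member probes passed in either direction, where 2312 of the 23280 kept probes did.

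**Figure D2:**
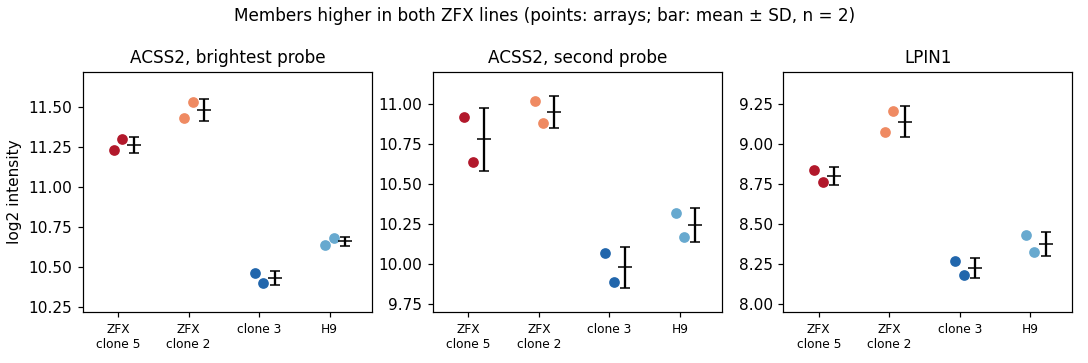
Log2 intensity of the ACSS2 probe of highest mean, the second ACSS2 probe and the LPIN1 probe in ZFX clone 5, ZFX clone 2, clone 3 and H9 (left to right), with points for arrays and bars for the mean ± SD of 2 arrays. All ZFX arrays lie above all control arrays in each panel.

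ACSS2 and LPIN1 also rose in each ZFX line over each control line, in comparisons that share lines. These pairs reuse the arrays of the comparison that called both genes. Of the 23280 kept probes, 239 rose in ZFX over control lines, and 193 rose there and in all 4 pairs. Rises in the 4 pairs were therefore likely from the start and are no independent support. For ACSS2, the log2 fold over H9 was 0.61 (SE 0.0791) in ZFX clone 5 and 0.82 (SE 0.0791) in ZFX clone 2. Over clone 3 the ACSS2 values were 0.84 and 1.05 in the same order, and all 4 passed, with adjusted p-values of at most 6.97e-06. LPIN1 stood at 0.42 over H9 in ZFX clone 5 (adjusted p = 0.00501) and 0.76 in ZFX clone 2 (1.45e-06), and at 0.57 (3.91e-05) and 0.91 (1.54e-08) over clone 3. When each line entered as 1 mean, so that 2 line means met 2, 0 member probes passed (4 at an unadjusted p under 0.05), and the adjusted p was 0.106 for ACSS2 and 0.305 for LPIN1. Under median scaling in place of quantile normalization, LPIN1 had a log2 fold of 0.58 and an adjusted p of 0.0553.

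The promoters of these genes are shown because their letters can be set beside the expression values. RefSeq (GRCh38.p14) gave 41 windows of 300 bases, from 250 before to 50 after a transcription start, for 29 of the 33 member genes. ACAT2, FASN, FDFT1 and SQLE had none in the table. Capitals mark matches, on either strand, to a sterol regulatory element type motif (TCACNNCAC), the NF-Y box (CCAAT), the GC box bound by Sp1 (GGGCGG) and the core of the ZFX consensus (AGGCCT). The windows run 5′ to 3′ on the gene's strand: ACSS2 start 1 at chr20:34874739-34875038 (plus strand), ACSS2 start 2 at chr20:34876362-34876661 (plus strand), LPIN1 start 3 (of 3) at chr2:11746382-11746681 (plus strand), and the MVD start at chr16:88663042-88663341 (minus strand).
ACSS2 start 1: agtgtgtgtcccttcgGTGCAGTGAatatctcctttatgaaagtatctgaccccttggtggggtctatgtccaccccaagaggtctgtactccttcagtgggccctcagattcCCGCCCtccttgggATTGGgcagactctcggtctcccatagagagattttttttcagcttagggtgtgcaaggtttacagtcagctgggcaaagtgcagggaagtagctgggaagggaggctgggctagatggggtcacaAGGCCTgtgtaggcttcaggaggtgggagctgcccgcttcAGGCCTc
ACSS2 start 2: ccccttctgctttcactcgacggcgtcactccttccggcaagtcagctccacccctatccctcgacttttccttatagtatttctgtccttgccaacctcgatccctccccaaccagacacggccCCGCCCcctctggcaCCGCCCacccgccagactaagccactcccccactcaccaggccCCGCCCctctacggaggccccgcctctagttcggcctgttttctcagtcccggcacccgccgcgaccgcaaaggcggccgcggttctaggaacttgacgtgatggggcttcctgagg
LPIN1 start 3: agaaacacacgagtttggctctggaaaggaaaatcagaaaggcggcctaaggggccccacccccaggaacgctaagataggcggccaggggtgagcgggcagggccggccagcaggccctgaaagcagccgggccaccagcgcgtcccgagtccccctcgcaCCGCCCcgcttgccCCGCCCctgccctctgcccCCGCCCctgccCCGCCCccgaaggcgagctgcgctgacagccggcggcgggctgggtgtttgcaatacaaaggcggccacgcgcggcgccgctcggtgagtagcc
MVD start 1: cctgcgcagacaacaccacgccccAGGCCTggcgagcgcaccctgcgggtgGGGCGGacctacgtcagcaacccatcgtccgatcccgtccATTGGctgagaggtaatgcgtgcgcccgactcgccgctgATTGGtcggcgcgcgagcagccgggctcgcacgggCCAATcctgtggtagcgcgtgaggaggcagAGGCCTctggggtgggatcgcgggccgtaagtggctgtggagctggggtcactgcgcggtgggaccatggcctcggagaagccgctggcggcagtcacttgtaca

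The first ACSS2 window held the sterol element type motif once and the ZFX core at 2 places, and the second held the GC box at 3 places and none of the other motifs. The LPIN1 window held 4 GC boxes and no match to the other 3 motifs. The MVD window, shown because MVD was low in clone 3, held 3 NF-Y boxes, 1 GC box and 2 ZFX cores. Over the member set, the NF-Y box was in 25 of 41 windows (61.0%), against 34.6% of the 35116 windows of all genes. The GC box was in 36 windows (87.8%, against 45.0%) and the ZFX core in 5 (12.2%, against 10.9%). The sterol element type motif was in 2 windows (3.57% of all windows), those of ACSS2 and SREBF2. These are matches of letters and not measured binding sites, and windows of 1 gene can overlap.

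Beyond ACSS2 and LPIN1, the members as a whole lay slightly above 0 in the ZFX lines. Of the 45 probes, 39 had a positive log2 fold (86.7%), against 48.9% of all kept probes, and the median was 0.14, against -0.0043. With H9 as the only control line the member median was 0.04. There 7 member probes passed in either direction, all of them rises, where 5.26% of all kept probes passed in either direction. With clone 3 as the only control line the member median was 0.22. There 17 member probes passed in either direction, all of them rises, where 13.3% of all kept probes passed in either direction. The arrays of the ZFX lines all lay above those of the control lines for 7 member probes, where 5.12% of all kept probes did so: ACSS2 with 2 probes, LPIN1, HMGCS1, IDI1, AACS and a dim LSS probe.

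In the mevalonate pathway, none of 9 probes passed the test of ZFX against control lines in limma, and 3 had an unadjusted p under 0.05. HMGCS1, the synthase that commits acetyl units to the pathway, had log2 intensities of 12.34 and 12.18 in ZFX clone 5, 12.45 and 12.36 in ZFX clone 2, 12.07 and 12.16 in clone 3, and 12.14 and 12.01 in H9. Its groups did not overlap, by a narrow gap between ZFX clone 5 and clone 3, and the log2 fold of 0.24 (SE 0.0915) had an adjusted p of 0.315. IDI1, the isomerase of isoprenoid units, had 8.18 and 8.04 in ZFX clone 5, 8.18 and 7.96 in ZFX clone 2, 7.68 and 7.71 in clone 3, and 7.94 and 7.88 in H9. The gap between the groups was again small, and its log2 fold was 0.29 (adjusted p = 0.39). AACS, which activates acetoacetate for lipid synthesis, also had a log2 fold of 0.29 (adjusted p = 0.364).

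Among the regulators, the levels of the factors themselves overlapped between ZFX and control lines. SREBF1 had log2 intensities of 7.26 and 7.26 in ZFX clone 5, 6.999 and 7.16 in ZFX clone 2, 7.04 and 7.09 in clone 3, and 7.54 and 7.36 in H9. H9 was the highest line, and the log2 fold of ZFX over control lines was -0.08 (adjusted p = 0.968). With clone 3 as the only control line the SREBF1 value turned to 0.11, and with clone 5 as the only ZFX line to 0.01, neither of which passed. SREBF2, near the limit of detection, had 4.94 and 4.91 in ZFX clone 5, 4.63 and 4.70 in ZFX clone 2, 4.47 and 4.71 in clone 3, and 4.89 and 4.40 in H9. Both ZFX clone 5 arrays were above all others, the other 3 lines overlapped, and the log2 fold of ZFX over control lines was 0.18 (adjusted p = 0.895).

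SCAP, the escort of SREBP, had log2 intensities of 10.17 and 10.28 in ZFX clone 5, 10.48 and 10.44 in ZFX clone 2, 10.29 and 10.11 in clone 3, and 10.15 and 10.25 in H9. ZFX clone 2 was the highest line, above H9 by 0.26 (adjusted p = 0.0385) and above clone 3 by 0.26 (adjusted p = 0.0346). ZFX clone 5 did not pass against H9 (log2 fold 0.02). INSIG1, the sterol-sensitive anchor of SCAP, had 10.98 and 10.79 in ZFX clone 5, 10.81 and 10.94 in ZFX clone 2, 10.96 and 10.70 in clone 3, and 10.79 and 10.97 in H9 on its probe of highest mean. The lines overlapped, and the log2 fold of ZFX over control lines was 0.02 (adjusted p = 0.987), with a sign that turned to -0.09 under median scaling and in 4 of the 8 fits that left out 1 array (lowest -0.03, without clone 3 replicate 2).

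FASN, fatty acid synthase, was highest in ZFX clone 5. Its log2 intensities were 13.50 and 13.49 in ZFX clone 5, 13.26 and 13.25 in ZFX clone 2, 13.07 and 12.99 in clone 3, and 13.21 and 13.34 in H9. Both clone 3 arrays were below all others, while the lower ZFX arrays and the higher H9 array overlapped. The log2 fold of ZFX over control lines was 0.22 (SE 0.0983, adjusted p = 0.425). SCD, the stearoyl-CoA desaturase that makes monounsaturated fatty acids, had 12.76 and 12.69 in ZFX clone 5, 12.66 and 12.81 in ZFX clone 2, 12.50 and 12.45 in clone 3, and 12.93 and 12.88 in H9. H9 was the highest line and clone 3 the lowest, so the ZFX lines lay between the controls. The log2 fold was 0.04 (adjusted p = 0.978), and it turned to -0.17 with H9 as the only control line, -0.06 under median scaling and -0.01 without clone 3 replicate 2. SQLE, squalene epoxidase, also lay level with H9: it had 11.31 and 11.37 in ZFX clone 5, 11.10 and 11.36 in ZFX clone 2, 10.94 and 10.84 in clone 3, and 11.34 and 11.24 in H9, and its log2 fold was 0.20 against both controls (adjusted p = 0.692) and -0.0027 against H9 alone.

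The comparison of clone 3 with H9 asked how far the control lines differ from each other. Here 21 member probes fell and 3 rose, where 9.8% of all kept probes fell and 9.18% rose, and the member median was -0.25, against -0.0156. By gene, 14 of the 32 were lower in clone 3 on the probe of highest mean and 3 were higher. ACAT2, MVD and FADS2 had the largest falls. These were also the 3 probes that passed under median scaling, where 0 rose and 3 fell. For this and the next settings the share of all kept probes is not given here. The count was 10 (0 rose) without an intensity trend in the variance model, 12 (0 rose) without clone 3 replicate 1 or without H9 replicate 2, and 13 (1 rose) without clone 3 replicate 2.

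Markers of other cells moved with this comparison too. The primitive streak sum was 2151 to 2228 in clone 3 and 190 to 210 in H9. The summed intensity of 6 hepatocyte or endoderm markers was 605 to 606 in clone 3 and 192 to 193 in H9. In clone 3 it was mostly FOXA2, which had mean log2 intensities of 8.79 in clone 3 and 5.03 in H9. AFP (5.83 and 5.86), ALB (4.695 and 4.74) and TTR (4.84 and 5.04) were slightly lower in clone 3. APOA1 and SOX17 were detected on 1 array each. The sum of 7 fibroblast or feeder markers was 1878 to 1909 in clone 3 and 2681 to 2788 in H9. It was mostly THY1, with mean log2 intensities of 10.47 and 10.99, and LUM and POSTN were detected on 0 arrays. The 9 embryonic stem cell markers summed to 21730 to 23620 in clone 3 and 24960 to 25210 in H9. Their part in the lipid gene differences was not tested, and in RNA from whole cultures fewer cells of a type and less RNA per cell cannot be told apart.

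In the mevalonate pathway 3 of 9 probes fell in clone 3 and 1 rose. ACAT2, the cytosolic thiolase that joins acetyl-CoA units at the entry to the pathway, had log2 intensities of 11.58 and 11.35 in ZFX clone 5, 11.31 and 11.49 in ZFX clone 2, 10.98 and 10.96 in clone 3, and 11.62 and 11.65 in H9. Clone 3 was below every other array, and the log2 fold over H9 was -0.66 (SE 0.0862, limma adjusted p = 1.54e-06), or 1.58-fold lower. The dim second ACAT2 probe did not pass (log2 fold 0.21, adjusted p = 0.456). MVD, the decarboxylase that makes isopentenyl diphosphate, had 7.71 and 7.68 in ZFX clone 5, 7.66 and 7.71 in ZFX clone 2, 7.13 and 7.05 in clone 3, and 7.71 and 7.82 in H9. The other 3 lines lay close together, and clone 3 was lower than H9 by -0.67 (SE 0.106, adjusted p = 2.77e-05), or 1.59-fold lower. AACS had a log2 fold of -0.30 (adjusted p = 0.0246).

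FDPS, which joins isoprenoid units into farnesyl diphosphate, went the other way. It had log2 intensities of 8.74 and 8.46 in ZFX clone 5, 8.68 and 8.77 in ZFX clone 2, 8.66 and 8.55 in clone 3, and 8.27 and 8.21 in H9. H9 was the lowest line, ZFX clone 5 overlapped ZFX clone 2 and clone 3, and clone 3 was above H9 by 0.36 (SE 0.0999, adjusted p = 0.0101). That call was lost without clone 3 replicate 1 (adjusted p = 0.127) and without H9 replicate 2 (0.0677).

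Of the 15 probes of squalene and sterol enzymes, 7 fell in clone 3 and 1 rose. SQLE had a log2 fold of -0.40 (SE 0.0871, adjusted p = 0.00129) on its first probe and of -0.60 (adjusted p = 3.79e-06) on the second. LSS, lanosterol synthase, had log2 intensities of 10.15 and 10.16 in ZFX clone 5, 10.03 and 9.96 in ZFX clone 2, 9.54 and 9.68 in clone 3, and 10.02 and 10.04 in H9. Clone 3 was below every other array, by a log2 fold of -0.42 against H9 (SE 0.0822, adjusted p = 0.0004). The 2 dimmer LSS probes had values of -0.05 and 0.23 that did not pass. SC5D, the lathosterol desaturase, fell by 0.46, EBP, the sterol isomerase, by 0.29 and DHCR7, which makes cholesterol from its last precursor, by 0.25.

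**Figure D3:**
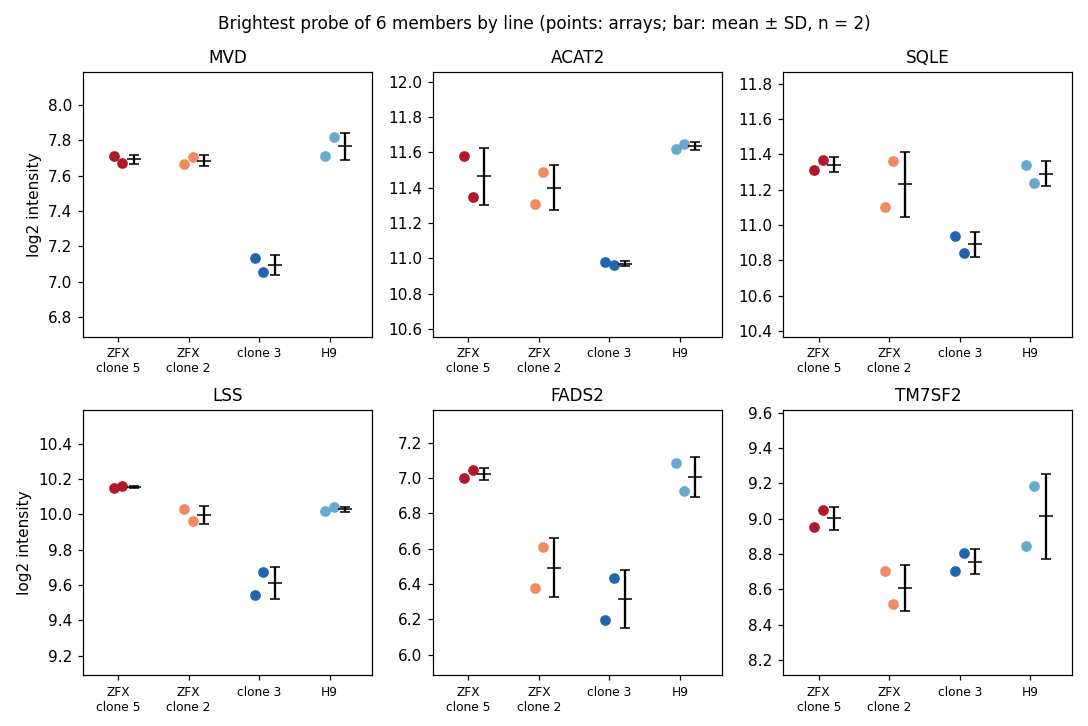
Log2 intensity of the probe of highest mean for MVD, ACAT2, SQLE, LSS, FADS2 and TM7SF2 in ZFX clone 5, ZFX clone 2, clone 3 and H9 (left to right), with points for arrays and bars for the mean ± SD of 2 arrays. Clone 3 is the lowest line for MVD, ACAT2, SQLE, LSS and FADS2, and ZFX clone 2 is the lowest for TM7SF2.

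Among the regulators, 3 of 7 probes fell in clone 3 against H9. Both SREBF1 probes fell, by 0.39 (adjusted p = 0.0188) and 0.52 (adjusted p = 0.0209), as did the second INSIG1 probe, by 0.34 (adjusted p = 0.0483). The first INSIG1 probe had a log2 fold of -0.05 (adjusted p = 0.803). SREBF2, SCAP and STARD4, a carrier of cholesterol between membranes, had values of -0.05, -0.0021 and -0.19 that did not pass.

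In fatty acid synthesis, 5 of 8 probes fell in clone 3. ACLY, which splits citrate to acetyl-CoA in the cytosol, fell on both probes, by 0.34 (adjusted p = 0.0125) and 0.48 (adjusted p = 0.000192). FASN fell by 0.25 (adjusted p = 0.0324). ACSS2 fell on its 2 probes of higher signal, by 0.23 (adjusted p = 0.0396) and 0.26 (adjusted p = 0.0497). ACACA, the carboxylase that makes malonyl-CoA, had 0.21 and 0.12 that did not pass.

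FADS2, the delta-6 desaturase of polyunsaturated fatty acids, had the largest fall. Its log2 intensities were 6.997 and 7.05 in ZFX clone 5, 6.38 and 6.61 in ZFX clone 2, 6.20 and 6.43 in clone 3, and 7.08 and 6.92 in H9. Clone 3 and ZFX clone 2 were both low, and ZFX clone 5 lay level with H9. The log2 fold of clone 3 over H9 was -0.69 (SE 0.134, limma adjusted p = 0.000389), or 1.61-fold lower. SCD fell by 0.43 (SE 0.0816, adjusted p = 0.000287), while FADS1, the delta-5 desaturase, had -0.01 and LPIN1 -0.15, neither of which passed.

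**Figure D4:**
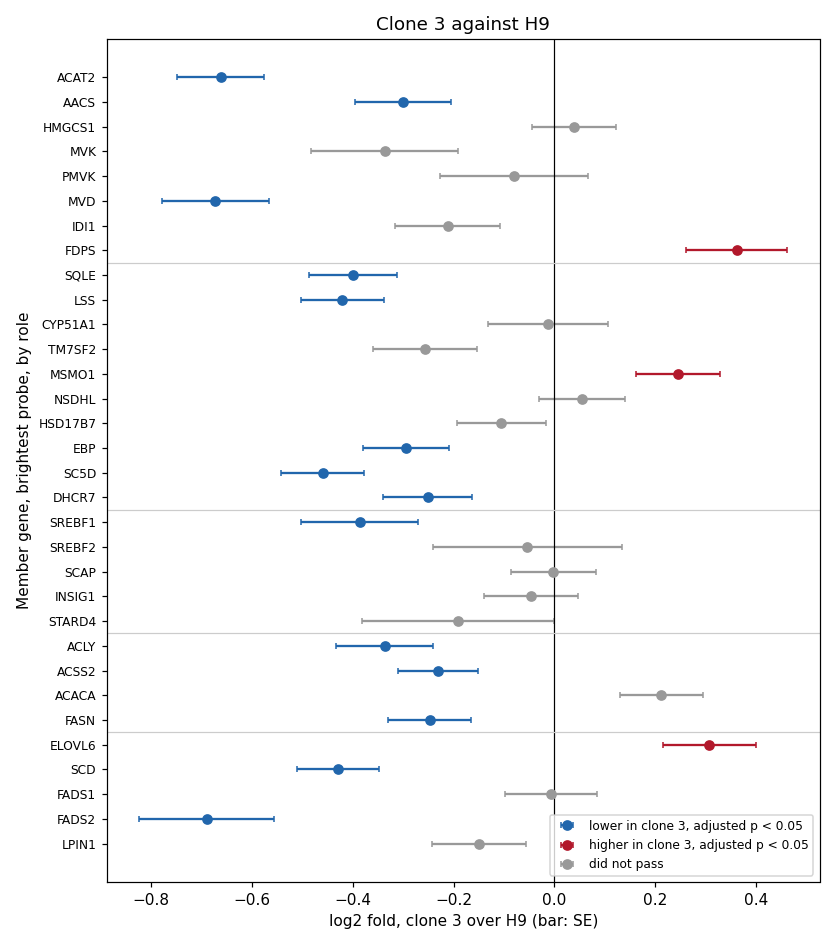
Log2 fold of clone 3 over H9 (x axis, bars are the SE) for the 32 member genes on their probe of highest mean (y axis, by role). The 14 genes in blue were lower and the 3 in red, FDPS, MSMO1 and ELOVL6, were higher at an adjusted p under 0.05, and the grey ones did not pass.

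Probes of 1 gene disagreed for some members, and this bears on 2 of the 3 rises in clone 3. MSMO1, the sterol C4 methyl oxidase, had 11.10 and 11.19 in ZFX clone 5, 11.36 and 11.19 in ZFX clone 2, 11.15 and 11.23 in clone 3, and 11.01 and 10.88 in H9 on its first probe. On its second it had 10.37 and 10.32 in ZFX clone 5, 10.36 and 10.43 in ZFX clone 2, 9.80 and 10.00 in clone 3, and 10.47 and 10.28 in H9. Clone 3 was above H9 on the first probe, by 0.24 (adjusted p = 0.0389), and below every other line on the second, by -0.47 against H9 (adjusted p = 0.000205). ELOVL6, the elongase of saturated and monounsaturated chains, had 10.75 and 10.84 in ZFX clone 5, 11.11 and 10.98 in ZFX clone 2, 10.81 and 10.88 in clone 3, and 10.71 and 10.37 in H9 on its first probe and 9.04 and 9.06 in ZFX clone 5, 9.17 and 8.94 in ZFX clone 2, 8.86 and 8.497 in clone 3, and 9.01 and 8.96 in H9 on its second. Clone 3 was above H9 by 0.31 (adjusted p = 0.0188) on the first and below it by -0.31 (adjusted p = 0.0357) on the second. Both rises were lost without clone 3 replicate 1, without clone 3 replicate 2 and without H9 replicate 2. In that last fit the ELOVL6 log2 fold was 0.14 (adjusted p = 0.438) and that of MSMO1 0.18 (adjusted p = 0.294). Of 11 genes with over 1 kept probe, MSMO1 and ELOVL6 were the 2 whose probes passed in opposite directions between clone 3 and H9.

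**Figure D5:**
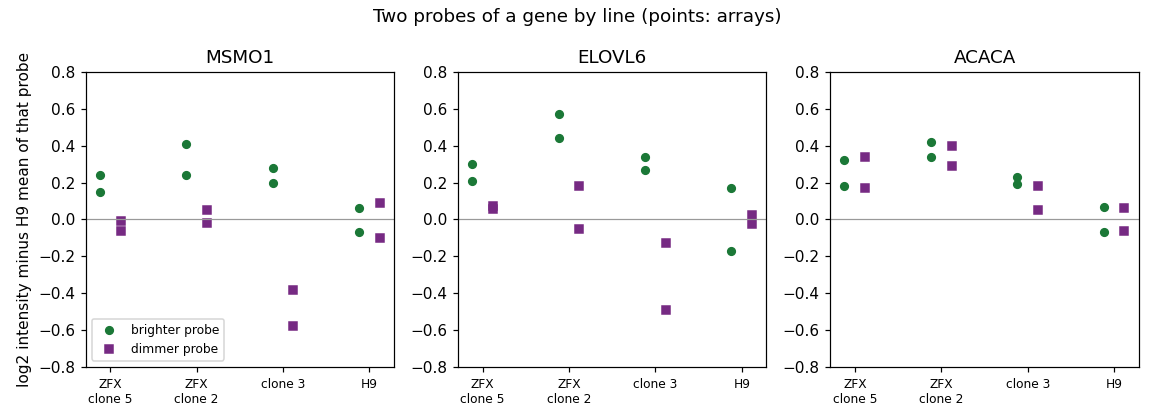
Log2 intensity minus the H9 mean of the same probe for the brighter (circles) and dimmer (squares) probe of MSMO1, ELOVL6 and ACACA in ZFX clone 5, ZFX clone 2, clone 3 and H9 (left to right), 1 point per array. In clone 3 the MSMO1 and ELOVL6 probes lie on opposite sides of 0, and the 2 ACACA probes lie on the same side.

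Set against clone 3, both ZFX lines were higher for many members and lower for none that passed in limma. In ZFX clone 5, 17 probes were higher (8.74% of all kept probes were), and in ZFX clone 2, 18 (8.2%). The member medians were 0.25 and 0.23. At an unadjusted p under 0.05, 24 and 25 member probes passed in either direction, where 6422 and 6139 of the 23280 kept probes did. MVD was higher by 0.60 (SE 0.106, adjusted p = 0.000123) in ZFX clone 5 and 0.59 (adjusted p = 0.000146) in ZFX clone 2. On the probe of highest mean, ACAT2 was higher by 0.49 and 0.43, LSS by 0.54 and 0.39, IDI1 by 0.41 and 0.38, and SQLE by 0.45 and 0.34, and all of these passed. The dim second ACAT2 probe had -0.05 and -0.0975 and did not pass, and neither did the dimmer LSS probes in either ZFX line. FASN was higher than clone 3 in ZFX clone 5 (0.47, adjusted p = 0.000104), and FADS2 likewise (0.71, adjusted p = 0.000291). Under median scaling the counts were 3 in ZFX clone 5 and 4 in ZFX clone 2, and without an intensity trend the count was 7 in ZFX clone 2. Clone 3 was also the line low in these genes against H9, and the comparisons share its arrays.

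Set against H9, ACSS2, LPIN1 and FDPS rose in both ZFX lines. FDPS was also above H9 in clone 3, by 0.36 (limma adjusted p = 0.0101), and H9 was its lowest line. In ZFX clone 5, 4 member probes were higher (2.77% of all kept probes were) and none was lower in limma (2.3%). The 4 were both ACSS2 probes of higher signal, LPIN1 and FDPS, the last with a log2 fold of 0.36 (SE 0.0999, adjusted p = 0.0306). At an unadjusted p under 0.05, 13 member probes passed, where 4076 of the 23280 kept probes did. The FDPS call in ZFX clone 5 was lost without ZFX clone 5 replicate 1 (log2 fold 0.22, adjusted p = 0.40), H9 replicate 1 (0.0535) or H9 replicate 2 (0.156), and the LPIN1 call without ZFX clone 5 replicate 1 (0.0682) or H9 replicate 2 (0.0614). Only 1 member probe passed without an intensity trend, 2 without ZFX clone 5 replicate 1 or without H9 replicate 2, and 0 under median scaling (4 at an unadjusted p under 0.05).

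In ZFX clone 2 against H9, 10 member probes were higher (7.65% of all kept probes were) and 6 were lower (6.63%). The rises were led by ACSS2, LPIN1 and ELOVL6 (0.50 on its first probe, adjusted p = 0.000341, and 0.06 on its second, which did not pass). ACACA rose on both probes, by 0.38 and 0.35, FDPS by 0.49, MSMO1 by 0.33 on its first probe and HMGCS1 by 0.33 (adjusted p = 0.00747). The falls were led by FADS2 (-0.51, SE 0.134, adjusted p = 0.00919), TM7SF2 (-0.41, SE 0.103, adjusted p = 0.00725) and SREBF1 (-0.37, SE 0.116, adjusted p = 0.0312). A second SREBF1 probe fell by 0.54 and SC5D by 0.29. The calls of FADS2 (adjusted p = 0.145 and 0.0808) and of the first SREBF1 probe (0.246 and 0.211) were lost without ZFX clone 2 replicate 1 and without H9 replicate 1. That of TM7SF2 was lost without ZFX clone 2 replicate 2 (0.132) and without H9 replicate 2, where its log2 fold was -0.24 (0.217). Under median scaling 1 probe passed, a rise, and without an intensity trend 7 did, 5 of them rises. Leaving out 1 array gave 8 without ZFX clone 2 replicate 1, 9 without H9 replicate 2 and 10 without ZFX clone 2 replicate 2.

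The ZFX lines differed from each other in 3 members, where 2.93% of all kept probes passed in either direction. FADS2 was higher in ZFX clone 5 than in ZFX clone 2, by 0.53 (SE 0.134, limma adjusted p = 0.0255). TM7SF2, a sterol C14 reductase, had log2 intensities of 8.96 and 9.05 in ZFX clone 5, 8.70 and 8.52 in ZFX clone 2, 8.71 and 8.81 in clone 3, and 8.84 and 9.18 in H9. Both ZFX clone 5 arrays were above both ZFX clone 2 arrays, by 0.39 (SE 0.103, adjusted p = 0.0308), and the H9 arrays lay on either side of those of ZFX clone 5. LPIN1 was lower in ZFX clone 5, by -0.34 (SE 0.0935, adjusted p = 0.0426). None of the 3 genes kept its call in limma under median scaling, without an intensity trend, or with any 1 array of the ZFX lines left out.

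Genes around the pathway were followed in 5 further lists, each gene on its probe of highest mean. Of all kept probes, 9.8% fell and 9.18% rose in clone 3 against H9, and 1.03% rose in ZFX over control lines. Among SREBP processing and degradation partners, none of 9 tested genes passed between ZFX and control lines in limma (1 at an unadjusted p under 0.05). Between clone 3 and H9, INSIG2 (0.41, adjusted p = 0.0263) and PAQR3, a Golgi anchor of the SCAP complex (0.36, adjusted p = 0.0188), rose, and TRIB3, a stress-induced pseudokinase, fell by 0.58 (adjusted p = 0.000218). Of 15 genes of sterol transport, storage and LXR response, LIPA, the lysosomal acid lipase that frees cholesterol from esters, rose in the ZFX lines over the controls (0.48, SE 0.115, adjusted p = 0.0386). It was also lower in clone 3 than in H9 (-0.39, adjusted p = 0.000769), and its log2 fold over H9 was 0.36 (adjusted p = 0.00279) in ZFX clone 2 and 0.21 (adjusted p = 0.14), which did not pass, in ZFX clone 5. In the same list, 4 genes rose and 3 fell in clone 3 against H9, among them OSBPL2 (0.50), OSBPL5 (0.49) and the lysosomal cholesterol transporter NPC1 (-0.39).

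Of 16 genes of acyl chain elongation, activation and NADPH supply, ACSL1, a long-chain acyl-CoA synthetase, rose in the ZFX lines over the controls (0.85, SE 0.203, adjusted p = 0.0394). Its log2 fold over H9 was 0.62 (adjusted p = 0.0319) in ZFX clone 5 and 0.59 (adjusted p = 0.0204) in ZFX clone 2. In clone 3 against H9, 4 of the 16 fell and 1 rose, where 9.8% of all kept probes fell and 9.18% rose. The falls took in the acyltransferase AGPAT2 (-0.50), MID1IP1, a partner of acetyl-CoA carboxylase (-0.39), and GPAM, which starts glycerolipid synthesis (-0.38). Of 7 isoprenoid branch genes and 8 fatty acid oxidation genes, none passed between ZFX and control lines in limma, with 1 in each list at an unadjusted p under 0.05. In clone 3 against H9, the oxidation genes CPT1A (0.51, adjusted p = 0.0365) and HADHA (0.46, adjusted p = 0.00451) rose, and of the isoprenoid genes FNTB rose (0.53) and DHDDS fell by 0.45.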

How the data were processed

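RNA from 4 human embryonic stem cell lines was measured on 8 Illumina arrays, 2 per line, grouped by sample title. The authors deposited linear probe intensity, a detection p-value for every probe and array, and a table of processed values on a log2 scale whose background handling is unknown. The submitters' processing notes name BeadStudio, and its version is not given in the sources used here.

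Intensity was background-corrected with normexp (limma 3.58.1, R 4.3.3, offset 16, negative controls inferred from the deposited detection p-values), quantile normalized and put on the log2 scale, and the 23280 probes detected (p under 0.05) on 2 or more arrays were tested. ZFX and control lines were compared in limma, blocking on the line (random effect, estimated correlation 0.352), and the 6 pairs of lines in a model of 4 line means, both with trended variances and p-values adjusted by Benjamini-Hochberg over all kept probes, called at 0.05. Fits were tested on simulated data. Symbols came from the platform annotation. Promoter windows came from RefSeq, and matplotlib 3.10.9 (Python 3.11.15) drew the figures. The number of arrays limits the precision between lines. For ZFX against control lines the limit is the number of lines, 2 ZFX lines and 2 control lines.

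Members and lists were chosen with earlier results of these data known. Per-array values were given for the 3 largest called rises and falls of each comparison and for SREBF1, SREBF2, INSIG1, SCAP, HMGCS1, SQLE, FASN and SCD, and folds for the other called members. Up to 4 called genes of each further list were named. Per-array values of IDI1 and LSS, and members named without passing a test, were added after values were seen. Alternatives varied the background correction, normalization, filter, variance model, blocks, lines and arrays. Unless a share of all kept probes stands beside it, a member count under an alternative cannot be set against the whole array.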

Additional observations from a re-analysis of the deposited data

Results flagged for a closer look

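The 2 ZFX lines differed from each other for 3 members in the test of the difference itself (limma, clone 5 against clone 2). TM7SF2 differed by 0.3937 on the log2 scale (adjusted p = 0.0308) and FADS2 by 0.5287 (adjusted p = 0.0255), both higher in ZFX clone 5 on 2 of 2 arrays. LPIN1 differed by -0.3391 (adjusted p = 0.0426) and was lower in ZFX clone 5 on 2 of 2 arrays. Their adjusted p-values were 0.468, 0.223 and 0.813 under median scaling. Of 34 groups of 4 arrays examined for a single array far from the rest, 0 had one. Each group joined the arrays of 2 lines, so a difference between lines can hide a deviant array. The nominal rate of 1 in 20 therefore does not apply, and the 0 does not show that no array deviated.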

How the results depend on the processing

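Counts of member probes that passed between single lines moved with the normalization and the variance model, and the count for ZFX against control lines moved with the lines used. The counts below stand without the share of all kept probes under the same setting. A lower count is therefore not a result about the members in particular. Under median scaling in place of quantile normalization the count was 3 in place of 24 for clone 3 against H9, 1 in place of 16 for clone 2 against H9, 0 in place of 4 for clone 5 against H9 (4 at an unadjusted p under 0.05), 4 in place of 18 for clone 2 against clone 3, 3 in place of 17 for clone 5 against clone 3 and 0 in place of 3 for clone 5 against clone 2 (3 at an unadjusted p under 0.05). The median within-line SD of member probes was 0.198 under median scaling and 0.101 under quantile normalization. For all kept probes it was 0.18 and 0.133 in the same order. Without an intensity trend the limma counts in these comparisons were 10, 7, 1, 7 and, for clone 5 against clone 2, 0 (6 at an unadjusted p under 0.05), with clone 5 against clone 3 within 1.5 times of its count. With no filter on detection 1 probe passed for clone 5 against clone 2. For ZFX against control lines, the count of 3 became 0 with the arrays of each line averaged (4 at an unadjusted p under 0.05), 7 with H9 as the only control line, 17 with clone 3 as the only control line and 1 with clone 5 as the only ZFX line. Leaving out 1 array gave 3 to 3 for ZFX against control lines and 12 to 22 for clone 3 against H9. Against H9 it gave 8 to 13 in clone 2 and 2 to 5 in clone 5, and against clone 3 it gave 12 to 13 in clone 2 and 14 to 17 in clone 5. Between both ZFX lines it gave 0 to 1 (9 to 11 at an unadjusted p under 0.05). The cause was not tested. After quantile normalization, same-numbered arrays did not deviate together probe by probe (correlations of replicate 1 minus replicate 2 of -0.00908 to 0.0571 between lines). These correlations cannot show a shift of whole arrays, which that step removes. With the replicate number as a block, the counts were 3, 24, 15, 4, 18, 18 and 3 in the order just given. Of 26 called folds of named members, 358 values under alternatives held 290 that kept direction and call, 68 that lost the call and 0 of the opposite sign. Those 26 folds were picked as the largest called ones of these data, and the alternatives reuse the same arrays. A kept sign was therefore likely from the start and is no independent support. Among members that did not pass, the log2 fold of ZFX over control lines changed sign for SREBF1 (0.1093 with clone 3 as the only control line, 0.0076 with clone 5 as the only ZFX line), for INSIG1 (-0.0863 under median scaling, -0.0336 to 0.0708 with 1 array left out), for SQLE (-0.0027 with H9 as the only control line) and for SCD (-0.0613 under median scaling, -0.1717 with H9 as the only control line, -0.0113 to 0.0943 with 1 array left out). The slide was not used as a block, because the file headers used here name no slides, and SREBF2 has no value where detection on all 8 arrays was required.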

Other observations

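Relatives of the members that stood out were looked up after those values were seen. LPIN2, the lipin related to LPIN1, had a log2 fold of -0.08 in ZFX over control lines (limma adjusted p = 0.975). Against H9 it was lower by -0.46 (adjusted p = 0.0413) in ZFX clone 2 and by -0.54 (adjusted p = 0.0118) in clone 3, and it had -0.25 in ZFX clone 5, which did not pass. SCD5, the second human stearoyl-CoA desaturase, had 0.06 in ZFX over control lines (adjusted p = 0.986). ACSS1, ACSS3 and FADS3 had 1 annotated probe each, and 0 of these were detected on 2 arrays.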
